A study of Mus musculus with 2 samples.

Results

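The galectin family was examined on oligonucleotide arrays of the fetal mouse ovary primordium. It was taken as 9 genes: Lgals1, Lgals2, Lgals3, Lgals4, Lgals7, Lgals8, Lgals9 and Lgals12, which encode galectins, and Lgals3bp, which encodes a secreted glycoprotein bound by galectin-3. Members were found by gene symbol. Every probe set, the group of short probes that reads 1 transcript, was used if the platform annotation gave it exactly 1 symbol and that symbol was a member. All 9 genes had such a probe set, of 18193 genes on the array, and together they had 13. The family was selected on the mutant over wild-type ratios of Lgals3 and Lgals7, which had been seen to differ in opposite directions, so the values of those 2 genes are a description and support nothing by themselves.

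Both arrays carried RNA of the gonad with its attached mesonephros, the embryonic kidney, dissected from XX embryos at E12.5, mid-gestation. Per the labels' protocols, the wild-type array held RNA from 6 pairs of complexes; the series' design text counts 6 control and 6 mutant samples instead, and each group has 1 array. The mutant array held RNA from 6 pairs of complexes homozygous for Gata4ki, with C57Bl/6 given as the strain of the mutant alone. Gata4ki is a germline knock-in that weakens the contact of the transcription factor GATA4 with its FOG cofactors, and it is carried by every cell of the embryo. With 1 array per group there was no replicate error, so no p-value could be given, and each difference describes these 2 RNA pools.

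Galectins are carbohydrate-binding proteins that recognise beta-galactosides, above all the disaccharide N-acetyllactosamine on glycoproteins and glycolipids. They are made in the cytosol, leave the cell without a signal peptide, and outside the cell cross-link glycoproteins into lattices that affect adhesion, receptor retention and immune cell survival. By architecture they are grouped into prototype galectins with a single carbohydrate recognition domain (Lgals1, Lgals2, Lgals7), the chimera type (Lgals3), in which that domain is joined to a long proline- and glycine-rich tail, and tandem-repeat galectins with a pair of domains in one chain (Lgals4, Lgals8, Lgals9, Lgals12). Lgals3 is a long-used surface antigen of macrophages, Lgals7 is known from stratified epithelia, Lgals2 and Lgals4 from the gut, and Lgals12 from adipocytes.

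The sequences upstream of the start sites of Lgals3 and Lgals7 are shown because these genes lay farthest apart and the mutant allele alters a DNA-binding factor. They come from RefSeq, assembly GRCm38.p6, and each runs over the 250 bases before the annotated start on the plus strand. The Lgals3 window is chr14:47373610-47373859 and the Lgals7 window is chr7:28864136-28864385. Capitals mark a GATA hexamer. The words searched were AGATAA and also AGATAG, together with TGATAA and also TGATAG, each on both strands; they share the GATA core and can overlap on opposite strands.
Lgals3: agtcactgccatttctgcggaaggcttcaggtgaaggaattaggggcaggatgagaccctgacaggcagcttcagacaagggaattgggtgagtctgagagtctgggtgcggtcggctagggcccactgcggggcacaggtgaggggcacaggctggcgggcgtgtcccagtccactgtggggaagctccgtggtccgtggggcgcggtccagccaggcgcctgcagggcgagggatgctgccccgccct
Lgals7: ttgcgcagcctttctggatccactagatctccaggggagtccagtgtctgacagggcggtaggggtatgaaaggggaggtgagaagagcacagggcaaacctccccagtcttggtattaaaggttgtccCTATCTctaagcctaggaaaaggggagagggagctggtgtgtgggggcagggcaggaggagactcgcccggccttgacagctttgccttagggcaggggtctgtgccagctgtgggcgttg
The Lgals7 window held 1 of these words, AGATAG on the minus strand, whose first letter on the printed strand lies 121 bases before the start site. The Lgals3 window held none of them, and 7 of the 9 members had a sequence in the table, of which 2, Lgals7 and Lgals2, held a word. Of all 32851 promoter windows of this length, 26.5% held at least 1. A match describes the letters and not a bound site.

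Signals were the deposited MAS5 intensities, used on their linear scale. Signals were floored at 24.0, the 50th percentile of the pair of arrays. A gene counted as measured if at least 1 array was above it, which held for 12300 genes. Ratios are log2 of mutant over wild type, and each gene was represented by its brightest probe set, ranked by mean log2 signal after the floor. The labelled tissue was present on both arrays, with the gonad genes Wt1, Lhx9 and Gata4, the mesonephric duct genes Pax8 and Cdh16 and the germ cell genes Dazl and Ddx4 above the floor on each.

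Of the 9 members, 6 were above the floor on both arrays and 3 on neither. At this floor Lgals3 alone was at least 2-fold higher in mutant tissue, and Lgals7 alone was at least 2-fold lower. Among all measured genes 0.846% were at least 2-fold higher and 0.537% at least 2-fold lower. Since that contrast was used to choose the family, nothing is read from the members' share. The median log2 ratio of the 6 measured members was -0.08, with 3 above and 3 below 0, and that of all measured genes was 0.01.

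**Figure D1:**
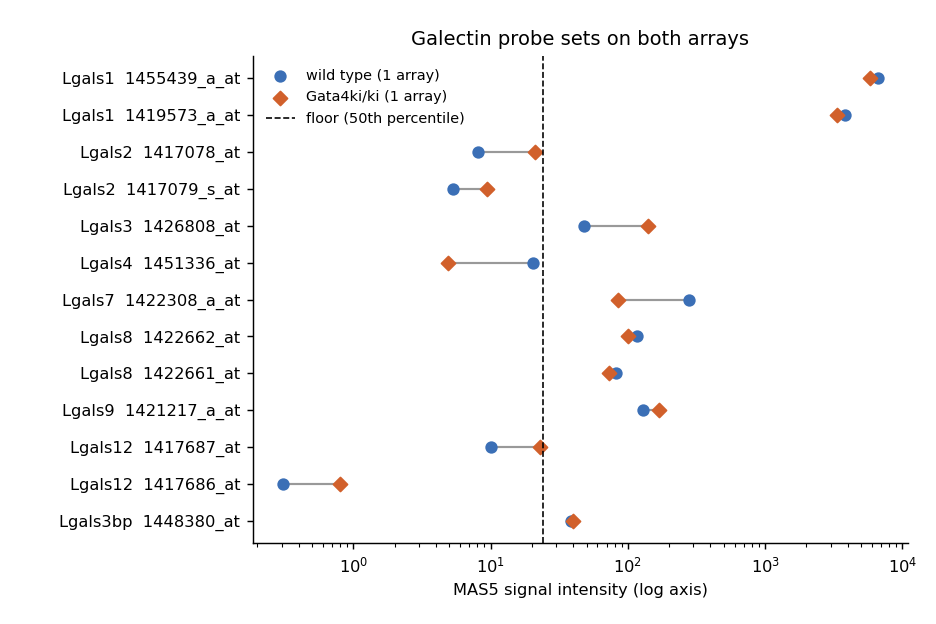
MAS5 signal intensity (log axis) of the 13 galectin probe sets, named by gene and probe set, on the wild-type array (circles) and the Gata4ki/ki array (diamonds); the dashed line is the floor at a signal of 24.0. Lgals3 lies to the right in the mutant and Lgals7 to the left, the Lgals1 and Lgals8 symbols nearly meet, and all probe sets of Lgals2, Lgals4 and Lgals12 lie under the floor.

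Among the prototype galectins, Lgals7 was lower in the mutant. Its probe set gave 280.5 in wild type and 85.2 in the mutant, both above the floor. The mutant signal was 3.29-fold lower, a log2 ratio of -1.72. This was the rank 12 lowest ratio of 12300 measured genes. Of the 2082 probe sets with a mean signal within 1.2-fold of its own, itself included, 3 were as far apart in either direction, and their ratios had a robust SD of 0.24. Lgals7 was read by 1 probe set, whose name carries a suffix for probes shared among transcripts, so a second reading within these arrays was not at hand.

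Lgals1, the prototype galectin of mesenchyme and muscle, had close signals. Its brightest probe set gave 6662 in wild type and 5790 in the mutant, a log2 ratio of -0.20. The other gave 3806 and 3314, also a ratio of -0.20. Both probe sets were thus lower in the mutant by the same small step. At this brightness ratios vary little. The 78 probe sets of similar signal had a robust SD of 0.06, and 3 of them, Lgals1 included, were at least as far apart. Both probe sets read the same RNA pools, so their likeness speaks of the probes alone, not of variation among embryos. Lgals2, the gut prototype galectin, stayed under the floor on each array, with signals of 8.09 and 20.9 on its brighter probe set and 5.34 and 9.35 on the other.

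Lgals3, the chimera galectin, was higher in the mutant. Its probe set gave 48.2 in wild type and 139.4 in the mutant, so both arrays were above the floor and the wild-type array was close to it. The mutant signal was 2.89-fold higher, a log2 ratio of 1.53, the rank 27 highest of all measured genes. Of the 1942 probe sets of similar mean signal, 8 were as far apart, and their robust SD was 0.32. Lgals3 too was read by 1 probe set.

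Lgals3bp encodes the secreted partner that galectin-3 binds through its sugar chains, and it was close between the arrays. It read 38.8 on the wild-type array and 40.1 on the mutant array, a log2 ratio of 0.05. Both values are near the floor, where the robust SD of similar probe sets was 0.45. A difference smaller than that spread could not be seen at this signal.

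The tandem-repeat galectins showed no 2-fold difference where they were measured. Lgals9, a ligand for immune receptors, gave 129.6 in wild type and 168.1 in the mutant, a log2 ratio of 0.38. Similar probe sets had a robust SD of 0.25, and 15.5% of them were at least as far apart. Lgals8, which binds integrins and marks damaged vesicles, was lower in the mutant on both of its probe sets. The brighter gave 116.9 and 100.5, a ratio of -0.22, and the dimmer read 81.3 and 73.3 (log2 ratio -0.15). Both steps were under the robust SD of probe sets of similar signal, 0.28 and 0.33.

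Lgals4 and Lgals12 stayed under the floor on each array. Lgals4, a gut epithelial galectin, read 20.4 on the wild-type array and 4.88 on the mutant array. Lgals12 had 10.1 and 22.8 on its brighter probe set and 0.30 and 0.80 on its dimmer one. No ratio is given for them, since signals this low differ widely on such arrays: of the 5893 genes under the floor on both arrays, 24.8% were at least 2-fold higher and 23.6% at least 2-fold lower when the floor was taken away. Absence of a signal above the floor in pooled tissue is not absence from every cell.

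**Figure D2:**
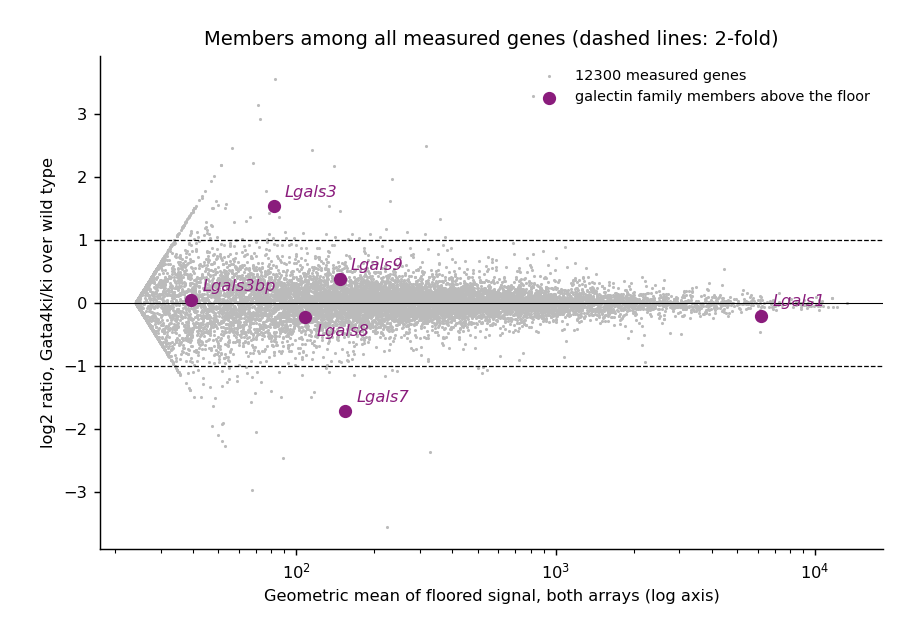
Log2 ratio of mutant over wild type against the geometric mean signal after the floor (log axis) for the 12300 measured genes, with the 6 measured galectin genes as large points and dashed lines at 2-fold. Lgals3 at 1.53 and Lgals7 at -1.72 lie outside the dashed lines, the other 4 lie between them, and the cloud narrows toward Lgals1 at the bright end.

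Relatives outside the 9 members were also read. Lgalsl, a galectin-like protein of the cytosol, gave 607.1 in wild type and 569.0 in the mutant, a log2 ratio of -0.09, and its dimmer probe set gave a ratio of -0.13. Grifin, a galectin-related lens protein, was under the floor on each array, with 2.45 and 5.07. No probe set carried Lgals6, a close mouse copy of Lgals4, as its only symbol, and probes for Lgals4 may read both.

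The genes beside Lgals3 and Lgals7 on their chromosomes were close between the arrays where both arrays were above the floor, and 1 neighbour of Lgals7 was a lower bound. For each member, the 3 nearest protein-coding genes on either side were taken from the RefSeq table, a choice made after the members' values were known. Near Lgals3, 5 of 6 neighbours had a probe set, all above the floor on both arrays, and their log2 ratios ran from -0.18 for Dlgap5 to 0.25 for Socs4. Near Lgals7, the 4 neighbours above the floor on both arrays, Hnrnpl, Ech1, Actn4 and Eif3k, had ratios from -0.13 to 0.14. The gene directly before Lgals7 is Lgals4, under the floor on both arrays. The gene directly after it is Capn12, a calpain protease gene, which read 36.6 on the wild-type array and 6.02 on the mutant array. That makes Capn12 at least 1.52-fold lower, a bound.

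Galectin ligands are built by enzymes that branch N-glycans and add N-acetyllactosamine. Of 21 such genes 20 were measured, and none was at least 2-fold apart on the probe set that represented it. Mgat5 had the largest ratio; it encodes the branching enzyme whose product is a favoured ligand of galectin-3. It gave 123.0 in wild type and 205.6 in the mutant, a log2 ratio of 0.74. Its other probe set, of nearly the same mean signal, read 101.4 and 230.2 (log2 ratio 1.18). Both were thus higher in the mutant, and whether Mgat5 passed 2-fold depended on which of them represented it. The galactosyltransferases B4galt5 and B4galt2 had ratios of -0.51 and -0.49, and the second probe set of B4galt2 read 24.7 and 1.73, a bound of at most -0.04 since the wild-type array was barely above the floor. The branching enzyme Mgat4a had a ratio of 0.44. The list median was 0.01, as over all measured genes, with 10 genes above and 10 below 0.

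Enzymes that cap or trim glycans of glycoproteins or glycolipids were also listed, since alpha-2,6 sialic acid blocks binding by several galectins. Of 12 genes 11 were measured, 1 was at least 2-fold higher and none at least 2-fold lower at this floor. St6gal2, which adds alpha-2,6 sialic acid, gave 21.7 in wild type and 66.8 in the mutant, at least 2.78-fold higher. St6gal1, the main enzyme of that linkage, gave 1314 and 1631, a log2 ratio of 0.31, with 0.62 on its second probe set. St3gal5 and St3gal4, which add alpha-2,3 sialic acid, had ratios of 0.54 and 0.46. The list median was 0.23, with 7 above and 4 below 0, but it was 0.04 if a gene was given the median of its probe sets.

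Of 31 glycoprotein ligands 30 were measured and none was at least 2-fold apart at this floor on its brightest probe set. Ptprc, the leukocyte phosphatase CD45 bound by galectin-1, gave 64.0 in wild type and 120.6 in the mutant, a log2 ratio of 0.92. The integrin gene Itgb3 had a ratio of 0.91, from 40.3 to 75.9. Cspg4, a proteoglycan of pericytes that binds galectin-3, had -0.69, with at most -0.57 on its other probe set. Itgb1 had -0.39, although its dimmer probe sets gave 0.16 and at most -1.10. The lysosomal glycoproteins Lamp1 and Lamp2, with ratios of 0.02 and -0.16, and Bsg with 0.07, were bright and close. The list median was -0.02, with 14 above and 16 below 0.

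Among intracellular partners, 7 of 10 had a probe set of their own and all 7 were measured. Calcoco2, an autophagy receptor whose human form binds galectin-8 on damaged vesicles, gave 73.8 in wild type and 29.3 in the mutant, a log2 ratio of -1.34. The mutant signal was close to the floor. Calcoco2 was the only partner at least 2-fold apart at this floor, on its 1 probe set, while Lgals8 itself had the small ratios above. Trim16, a ubiquitin ligase that works with galectin-3 in the same response, had -0.88 on its brighter probe set and at least 0.41 on the dimmer one, so its probe sets disagreed in sign. Ctnnb1, Nup98 and Bcl2 had ratios of 0.01, -0.02 and 0.13, Sufu had -0.11 and Pdcd6ip -0.24. The other probe sets of Bcl2 ran from -0.91 to 0.45 and those of Pdcd6ip from -0.60 to 0.37, so these too disagreed in sign. Those of Ctnnb1 and Nup98 also differed in sign but lay between -0.12 and 0.04. The list median was -0.11, with 2 above and 5 below 0.

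**Figure D3:**
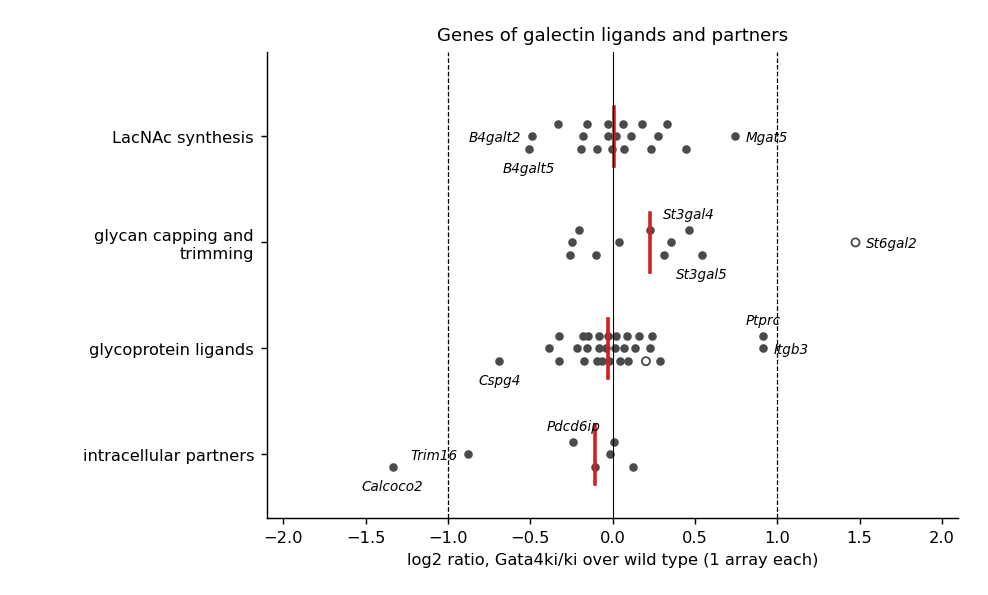
Log2 ratio of mutant over wild type for each measured gene of 4 lists on galectin ligands and partners; filled points are above the floor on both arrays, open points are bounds with 1 array at or under it, red bars are list medians and dashed lines mark 2-fold. St6gal2 and Calcoco2 are the points outside the dashed lines, and the medians lie between -0.11 and 0.23.

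Cell types known for Lgals3 and Lgals7 were followed through their markers. In bulk tissue, fewer cells of a type and less RNA per cell cannot be told apart. All 16 macrophage markers were measured, and none reached 2-fold at this floor. A ratio above 0 was seen in 6320 of all 12300 measured genes and in 14 of these markers. The markers' median log2 ratio was 0.51, or 0.40 with a pseudocount in place of the floor. Their signals summed to 1977 on the wild-type and 2909 on the mutant array, with Csf1r the largest part of both sums. Csf1r, the receptor that defines the lineage, gave 626.0 and 1066, a ratio of 0.77, with 0.59 and 0.40 on its dimmer probe sets. Adgre1, the F4/80 antigen, gave 94.1 and 155.5, a ratio of 0.72. Lyz2 and C1qa had ratios of 0.00 and 0.02, and Cx3cr1 and Cd14 had -0.39 and at most -0.36. Lgals3, at 1.53, lay above the highest ratio of this list on brightest probe sets, 0.92 for Ptprc, which the ligand list also holds. A dimmer probe set of C1qb gave 0.96, although its brightest gave 0.51 and the remaining one 0.24. The part of these cells in the Lgals3 value was not tested.

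Stratified epithelium markers were mostly under the floor on both arrays. Of 12 listed genes 11 were on the array and 4 were measured. Krt5, Krt15, Trp63 and Sfn were under the floor on each array, and Krt14 was above it on the mutant array alone, at 29.3 against 17.9. Krt10 gave 353.3 in wild type and 372.7 in the mutant, a log2 ratio of 0.08, and Cdh3, P-cadherin, gave 77.3 and 49.9, a ratio of -0.63. The 11 genes summed to 558.8 on the wild-type and 542.6 on the mutant array, with Krt10 the largest part of both sums. The median ratio of the measured genes was -0.03, which depended on the processing. It was -0.28 with the floor at the 60th percentile or with no floor, and -0.38 without suffixed probe sets. On the wild-type array, where Lgals7 was at 280.5, Krt5, Krt14, Krt15, Trp63 and Sfn were under the floor. Krt10, Cdh3 and Krt1, the last at 35.9 and 32.8 in wild type and mutant, were above it. The part of this tissue in the Lgals7 value was not tested.

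Epithelia of the complex itself were measured more fully. Of 9 coelomic epithelium markers 8 were measured, with a median log2 ratio of 0.22 and a summed signal of 3699 and 4106 in wild type and mutant. Ratios were 0.43 for Krt8, 0.40 for Krt7, -0.23 for Upk3b and -0.23 for Upk1b. However, the other Upk3b probe set gave 0.07, and the other Upk1b probe sets ran from -0.23 to 0.25. All 9 mesonephric and Müllerian duct markers on the array were measured, with a median of -0.16 and a summed signal of 3066 and 2619. Calb1 had a ratio of -0.72 and Wnt7a of -0.63, though the other Wnt7a probe set gave 0.34. None of these genes was 2-fold apart at this floor. Among 9 supporting cell markers 6 had a ratio below 0 and 3 above. Fst, Foxl2 and Irx3 were at least 2-fold lower, whereas Lgr5, Bmp2 and Rspo1 had ratios of 0.62, 0.42 and 0.34. The list median was -0.49, which is the bound of Irx5 and became -0.28 with a pseudocount, and the signals summed to 3707 on the wild-type and 2366 on the mutant array. Which cells carried the Lgals7 signal was not measured, and the part of these lists in it was not tested.

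**Figure D4:**
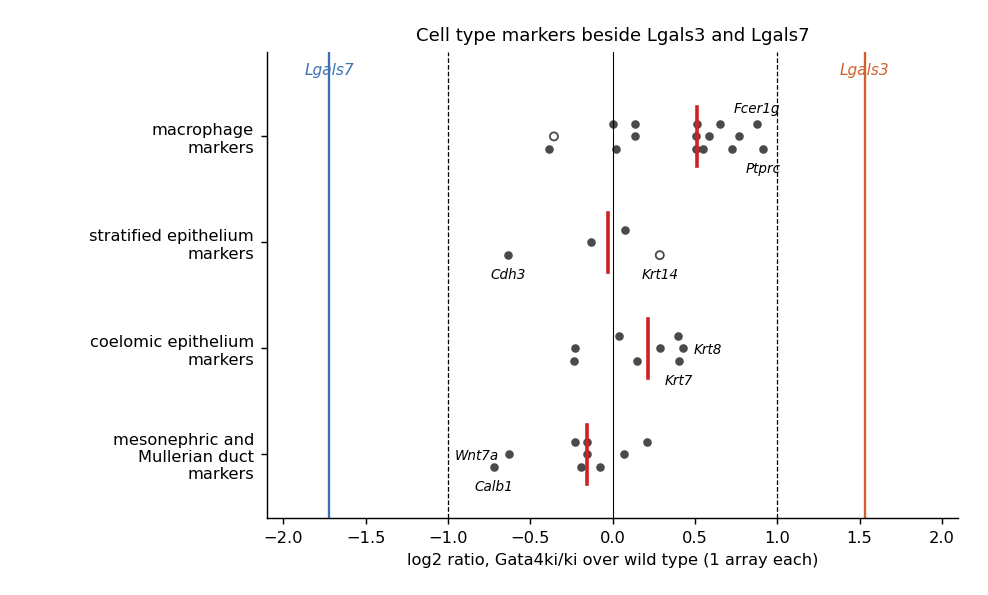
Log2 ratio of mutant over wild type for the measured markers of 4 cell types, with open points for bounds and red bars for list medians; vertical lines give Lgals7 at -1.72 and Lgals3 at 1.53, and dashed lines mark 2-fold. Every marker of these 4 lists lies between both galectin lines, with the macrophage median at 0.51 and the other 3 medians between -0.16 and 0.22.

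Other lists shifted further than the macrophage list on the same arrays. All 5 measured erythroid markers had a ratio above 0 and 4 were at least 2-fold higher, a step passed by 0.846% of all measured genes. The erythroid median was 1.42 and ran from 1.06 to 1.42 under other processing settings. Erythroid signals summed to 184.4 on the wild-type and 480.3 on the mutant array. Klf1 had a ratio of 1.66, Hemgn of at least 2.19 and Alas2 of 1.03. Slc4a1 had 1.42, with 0.95 on its other probe set. Of 6 measured steroidogenic markers 3 were at least 2-fold higher, with a median of 1.24 and a sum of 1224 and 1710. Of their ratios 3 were bounds, and the median ran from 0.73 to 1.93 under other processing settings. Hsd3b1 had a ratio of 2.17 and Cyp17a1 of at least 3.14. Star had at least 1.93 on its brightest probe set, but its others gave 0.17 and at least 0.91. Klf1, Hemgn, Hsd3b1, Cyp17a1 and Star were past the ratio of Lgals3, and Fst and Foxl2, at -3.55 and -2.05, were past that of Lgals7. Their part in the values of both galectins was not tested.

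Markers of tissues known for the members under the floor were low as well. Of 7 intestinal epithelium genes, the tissue of Lgals2 and Lgals4, 3 were above the floor on 1 array only and none on both; Vil1 gave 32.5 and 19.7, Cdx2 24.1 and 7.04, and Krt20 15.6 and 27.2 in wild type and mutant, so their ratios cannot be ranked. The adipocyte genes Adipoq and Pparg were under the floor on both arrays, while Fabp4, which endothelium also expresses, gave 191.8 and 214.5. For Lgals1, the skeletal muscle markers Myl1, Des and Actc1 had ratios of -0.38, -0.38 and -0.35 and Tnni1 had 0.23, with a list median of -0.36 over 4 measured genes. Their part in the small Lgals1 step was not tested.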

How the data were processed

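The authors deposited linear signal intensities, 1 per probe set, with MAS5 named as the tool per the submitters' processing notes; for its version, detection calls and filters, the sources used here say nothing. After trimming 2% from each end, the 45101 probe sets had a mean of 150.0 on both arrays, the mark of MAS5 global scaling, so no further normalization was applied. Probe sets were named by the platform's annotation table: 34945 had 1 symbol, 932 several, 9160 none, and the 64 control probe sets were left out. Signals under 24.0 (50th percentile) were set to it before log2, and where 1 array was not above that signal the ratio is a bound ("at least" or "at most").

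The members and gene lists were chosen with earlier results of these data known. Named were all members and relatives, list genes 2-fold apart or with the largest ratios (up to 4 a list), and defining cell type markers; other genes were chosen after their values were seen. The other lists tracked trophoblast, steroidogenic, germ, endothelial, neuronal, erythroid and early gonad cells, with medians of 0.08, 1.24, 0.10, -0.12, 0.14, 1.42 and 0.25. The steroidogenic median ran from 0.73 to 1.93 in the alternative settings, and the erythroid median from 1.06 to 1.42. That of adipocytes was 0.20 over 2 genes, or 0.89 without a floor. That of intestine was -0.01 over 3 bounds, and ran from -0.72 to 0.23 with other floors, so it has no settled value. Robust SD is the scaled median absolute deviation of log2 ratios over probe sets above the floor on both arrays. The number of arrays limits the precision. The procedure was tested on simulated arrays (Python 3.11.15, pandas 2.3.3, numpy 2.4.6). There, noise was set by hand and changes were planted only in genes with mean signals several-fold above the floor. Recovery of changes in dimmer genes, Lgals3 and Lgals3bp among them, was thus not tested. Alternatives were other floors, a pseudocount, no floor, quantile or median scaling, other probe set rules and a 1.5-fold threshold. No genome build is stated for the array values.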

Additional observations from a re-analysis of the deposited data

How the results depend on the processing

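Lgals3 stayed at least 2-fold higher in all 8 alternative settings, with log2 ratios from 1.18 to 1.54, the lowest with a pseudocount in place of the floor. With the floor at the 60th percentile its 1.52 is a bound. Lgals7 stayed at least 2-fold lower in the 7 settings that gave it a value, from -1.72 to -1.48. Without suffixed probe sets it has no value, and 0 members were then at least 2-fold lower. Lgals1, Lgals8, Lgals9 and Lgals3bp kept their sign and stayed under 2-fold wherever they had a value. Without a floor 3 members were at least 2-fold higher and 2 lower, as Lgals2 (1.37), Lgals12 (1.18) and Lgals4 (-2.06) came in from under it, and 9.48% and 8.61% of all genes passed. At the 40th percentile floor the same 3 genes gave bounds of 0.61, 0.73 and -0.57. The other counts of members, including those at 1.5-fold, were 1 and 1. The members' median ran from -0.20 to 0.05 and so had no settled sign. Of 150 medians of the other lists, 23 moved by more than a set tolerance. That tolerance took the same fixed SD for every list and shrank with the number of genes, so it was not estimated from these arrays. No paired analysis was possible because each group had 1 array, and no array could be left out for the same reason.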
